A study of Homo sapiens with 4 samples.

Results

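Small nucleolar RNA (snoRNA) host genes and the snoRNAs themselves were followed in 22Rv1 cells, an androgen-receptor-positive line derived from a human prostate cancer xenograft, after loss of CD276. Members were chosen by name and by summed counts, as the rows named SNHG plus a number, GAS5, or SNORA or SNORD plus a number with at most 1 letter after it, with at least 20 counts over the 4 libraries together. This rule gave 69 of 57014 named genes, namely 23 host genes, 23 C/D box snoRNAs (SNORD) and 23 H/ACA box snoRNAs (SNORA). A further 174 of the 330 rows of this name pattern were listed at 0 in every library, and 87 had between 1 count and the minimum. The summed count chose the members and is a description only. Just outside the minimum lay SNORA9B, SNORD14E and SNORD6 with 19 summed counts each, and SNORD11 and SNORD63 with 18. Just inside it were SNORA31 with 20 and SNORA2B with 22.

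The study compared 2 control libraries of 22Rv1 carrying a guide against GFP, labelled wild type, with 2 libraries carrying a guide against CD276 (B7-H3, an immune checkpoint protein of the tumour cell surface), labelled knockout. The 4 libraries came from the same line grown in RPMI-1640 with 10% fetal bovine serum, and the libraries were numbered replicates 1 and 3 in both groups. The replicates are described as biological with no mention of separate cultures, so the p-values rest on the spread among these libraries, which may be technical. Not given in the sources used here is whether the knockout cells were a pool or 1 clone. The RNA was poly(A)-selected before sequencing.

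Mature snoRNAs are short, stable, non-polyadenylated RNAs of the nucleolus that guide the modification of ribosomal and spliceosomal RNA, C/D box members directing 2'-O-methylation and H/ACA box members pseudouridylation. Most human snoRNAs are cut from the introns of a host gene after splicing. Many hosts encode ribosomal proteins or translation factors, while GAS5 and the SNHG genes give a spliced RNA with little coding capacity, which for several of them starts with a terminal oligopyrimidine tract and is removed by nonsense-mediated decay. In a poly(A)-selected library, reads over a snoRNA can come from the mature RNA, its precursor or an unspliced host RNA, and these sources cannot be told apart here.

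The total over named genes ranged from 20079050 to 25802417 counts per library, and 1 normalized CPM (the count scaled to library size and edgeR's TMM factor) equalled 19.4 to 26.3 counts. CD276 itself had 1058 and 1054 counts in control cells and 621 and 679 in knockout cells, and its level fell from 50.9 ± 4.98 to 24.9 ± 1.84 normalized CPM (SD, n = 2 each; log2 fold change -1.03 ± 0.16 SE, adjusted p = 0.00561; 0.0812 without control replicate 3). All 9 prostate epithelial markers were detected in every library, with summed levels of 3175 to 3983 normalized CPM, and of 11 fibroblast, leukocyte and endothelial markers CD3E, CDH5 and PECAM1 were at 0 in every library. The controls correlated at r = 0.988 over log2 levels of the tested genes, the knockouts at 0.975, and libraries of different groups at 0.943 to 0.956. The sum of the other-cell markers was 51.9 and 48.0 in control cells and 20.2 and 33.6 in knockout cells, most of it COL1A1, which fell (48.1 ± 2.70 to 24.0 ± 7.25 normalized CPM, SD, n = 2 each), while the other 2 tested markers, COL3A1 and COL1A2, had log2 fold changes of 1.20 and 0.61 without passing. The part of these markers in the results was not tested.

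The 4 snoRNAs that were lower in knockout cells and SNORD17, which was higher against its host gene, are shown first, as GENCODE 29 transcripts on GRCh38 read 5′ to 3′ with T for U. Capitals mark, for SNORD members, the letters TGATGA (the C box consensus) and the last CTGA (the D box), and for SNORA7B the ANANNA nearest the middle (an H box match) and the ACA near the 3′ end.

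SNORD104: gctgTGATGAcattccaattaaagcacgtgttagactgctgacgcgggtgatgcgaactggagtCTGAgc

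SNORD88A: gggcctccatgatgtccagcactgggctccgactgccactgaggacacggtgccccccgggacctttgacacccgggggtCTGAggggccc

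SNORD63B: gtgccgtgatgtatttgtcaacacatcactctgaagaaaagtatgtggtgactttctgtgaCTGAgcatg

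SNORD17: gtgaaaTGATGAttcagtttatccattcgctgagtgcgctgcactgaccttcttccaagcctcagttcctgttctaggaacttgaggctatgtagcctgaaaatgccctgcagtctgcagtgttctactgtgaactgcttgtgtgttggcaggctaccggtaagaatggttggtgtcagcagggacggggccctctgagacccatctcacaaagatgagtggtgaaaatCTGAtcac

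SNORA7B: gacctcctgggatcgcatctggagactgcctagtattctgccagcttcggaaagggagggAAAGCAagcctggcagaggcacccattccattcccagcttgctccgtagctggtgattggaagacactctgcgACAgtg

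SNORD104 lies at chr17:64146083-64146152 on the plus strand in an intron of the member host SNHG25. SNORD88A lies at chr19:50799442-50799532 on the minus strand in an intron of C19orf48, and SNORD17 at chr20:17962710-17962946 on the minus strand in an intron of SNX5, which encodes a sorting nexin, with OVOL2 also spanning it. SNORA7B lies at chr3:129397210-129397348 on the minus strand in an intron of the pseudogene RPL32P3. SNORD63B, at chr5:138558970-138559039 on the minus strand, differs from these in position, since all of its 70 bases lie in an annotated exon of HSPA9, the mitochondrial HSP70 chaperone.

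Only the RNA strand was searched. TGATGA followed by CTGA was present in 105 of 156 SNORD sequences (67.3%), in 18 of the 23 SNORD members and in 1 of 141 SNORA sequences. ACA within the last 12 bases was present in 126 of 141 SNORA sequences (89.4%), in 21 of the 23 SNORA members and in 14 of 156 SNORD sequences. ANANNA away from the ends was found in 137 of 141 SNORA sequences. SNORD88A and SNORD63B hold no exact TGATGA, so a D box alone is marked in them. Such matches describe letters and do not show a working box.

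Close copies limit how reads can be assigned. SNORA7B differed from SNORA7A, which had 0 counts, by 2 edits over 139 bases (98.6% identity), and SNORD62B was identical to SNORD62A over 86 bases. SNORA22 and SNORA22C were 98.5% identical, SNORA73B and SNORA73A 93.2%, and SNORA11F and SNORA11D 93.0%. SNORD3A and SNORD3B-1 were 91.6% identical, SNORA75 and SNORA75B 91.2%, and SNORD88A and SNORD88B 91.2%. SNORD60 was 96.4% identical to RF00345, which overlaps it on its strand. Values of these members are uncertain for that reason, while the closest copy of SNORD63B, SNORD63, was only 70.0% identical. The assignment of reads to SNORD63B is uncertain for another reason, since all of its 70 bases lie in an exon of HSPA9.

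Few of the spliced host genes passed the test. Of 23 hosts, all tested, 0 were higher and 2 were lower in knockout cells by edgeR's quasi-likelihood test at an adjusted p under 0.05 (8.70%), against 22.8% of all 18043 genes tested, 9.87% higher and 12.9% lower. Scaling by library totals alone gave 2340 genes higher and 1781 lower, in place of 1780 and 2331, and 1 host higher and 0 lower. At an unadjusted p under 0.05, 1 host was higher (4.35%) and 7 were lower (30.4%), against 17.9% and 20.9% of all genes tested. The median log2 fold change of the hosts was -0.13, with a range of -1.28 to 1.03, and that of all genes was -0.0045. For 16 of the 23 hosts the 95% interval lay wholly within a 2-fold change in either direction. In such bulk libraries, fewer cells of a type and less RNA per cell cannot be told apart.

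SNHG12 was one of the hosts that fell. This gene on chromosome 1 carries SNORD99, SNORA44 and SNORA61. Its level was 41.8 and 36.4 normalized CPM in control replicates 1 and 3 and 23.8 and 27.7 in knockout replicates 1 and 3. Both knockouts were thus below both controls, and the mean fell from 39.1 ± 3.84 to 25.8 ± 2.71 normalized CPM (SD, n = 2 each; log2 fold change -0.60 ± 0.16 SE, adjusted p = 0.0316). The call was lost without control replicate 1 (adjusted p = 0.412), without control replicate 3 (0.188) and with library totals as the scaling (0.0636).

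SNHG9, a short host on chromosome 16 that contains SNORA78, also fell. It had 161 and 125 counts in control cells and 87 and 109 in knockout cells, or 7.21 and 6.45 against 3.31 and 4.21 normalized CPM. The knockouts again lay below the controls, and the mean fell from 6.83 ± 0.535 to 3.76 ± 0.637 (SD, n = 2 each; log2 fold change -0.86 ± 0.25 SE, adjusted p = 0.0420). The adjusted p was 0.400 and 0.241 without control replicate 1 and control replicate 3, 0.0573 with library totals and 0.0744 with DESeq2. By the annotation, 23.0% of the exonic bases of SNHG9 are shared with SNORA78 on the same strand.

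**Figure D1:**
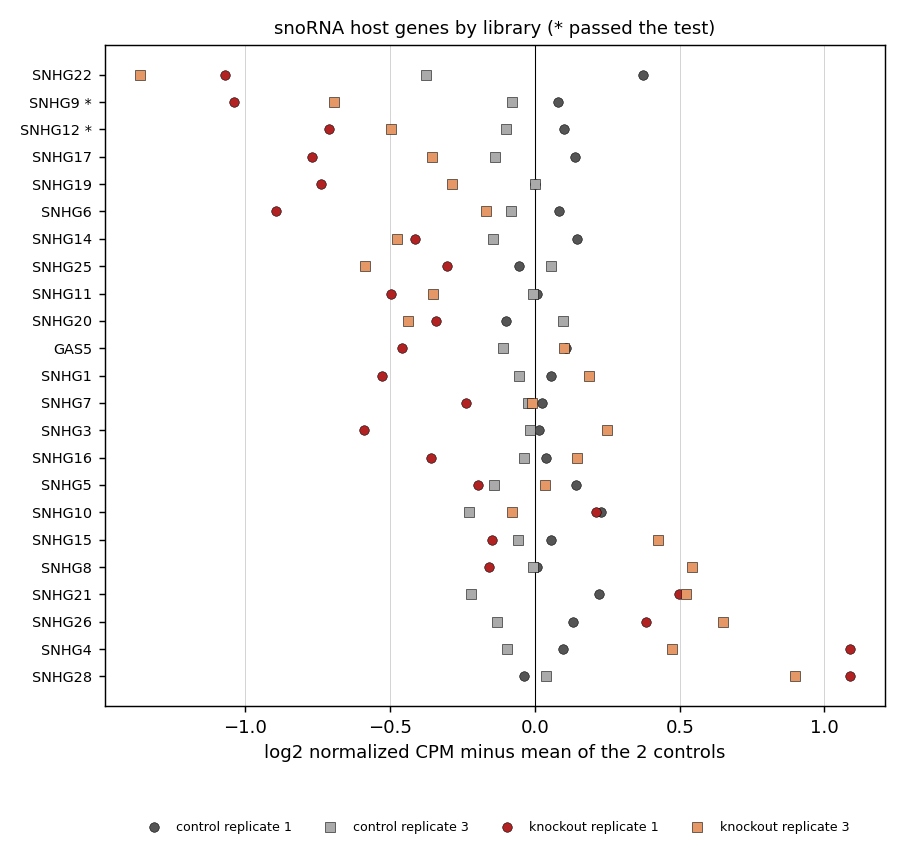
Levels of the 23 snoRNA host genes by library, as log2 normalized CPM minus the mean of the 2 control libraries (x axis), ordered by log2 fold change; circles are replicate 1 and squares replicate 3, with controls in grey and knockouts in colour. SNHG9 and SNHG12 (asterisks) passed the test, and knockout replicate 1 lay left of knockout replicate 3 in 16 of the 23 genes.

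The 8 hosts with the most counts did not pass the test. GAS5, whose snoRNAs guide methylation of ribosomal RNA and whose spliced RNA is known to accumulate in growth-arrested cells, had 10011 and 7469 counts in control cells and 7945 and 11525 in knockout cells. These were 448, 386, 303 and 446 normalized CPM, so that knockout replicate 3 lay between the controls and knockout replicate 1 below both. The log2 fold change of GAS5 was -0.16 ± 0.21 (SE), its 95% interval ran from -0.63 to 0.31 and its adjusted p was 0.615. SNHG5, the host with the next most counts, stood at 314 and 258 normalized CPM in control cells and 248 and 291 in knockout cells (log2 fold change -0.08 ± 0.17, adjusted p = 0.745). The groups overlapped for both genes.

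SNHG1, the host of a cluster of C/D box snoRNAs, had 105 and 97.3 normalized CPM in control cells and 70.2 and 115 in knockout cells. SNHG16 had 109 and 104 in control cells and 83.0 and 118 in knockout cells. SNHG8 had 99.4 and 98.5 in control cells and 88.7 and 144 in knockout cells. In these 3 genes knockout replicate 1 was below both controls and knockout replicate 3 above both, and their adjusted p-values were 0.705, 0.761 and 0.453. SNHG6 stood at 143 and 127 in control cells and 72.6 and 120 in knockout cells, with both knockouts below (log2 fold change -0.49 ± 0.22 SE, adjusted p = 0.138). SNHG7 was at 89.4 and 86.4 in control cells and 74.5 and 87.3 in knockout cells, an overlap between the groups. By the annotation, 30.6% of the exonic bases of SNHG16, 29.3% of SNHG6 and 25.2% of SNHG7 overlap a gene on the opposite strand. The same holds for 34.1% of SNHG21 and 20.1% of SNHG10. The strand setting of the counting was not given, so these levels are uncertain.

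SNHG14, the long host of the imprinted snoRNA clusters on chromosome 15, missed the threshold narrowly. It had 100 and 82.0 normalized CPM in control cells and 68.0 and 65.2 in knockout cells, with no overlap (log2 fold change -0.45 ± 0.15 SE, adjusted p = 0.0569). SNHG17, the host of the SNORA71 snoRNAs, had 942 and 675 counts in control cells and 591 and 776 in knockout cells (-0.55 ± 0.19 SE, adjusted p = 0.0655), and once scaled to CPM the groups did not overlap. SNHG19 had 35.1 in both controls and 21.1 and 28.8 in knockout cells (-0.49 ± 0.18 SE, adjusted p = 0.0840). SNHG11 and SNHG20 had log2 fold changes of -0.42 and -0.39, with adjusted p-values of 0.119 and 0.146.

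Higher levels in knockout cells were seen in a few weak hosts, none of which passed. SNHG4 had 5.91 and 5.16 normalized CPM in control cells and 11.8 and 7.69 in knockout cells, without overlap (log2 fold change 0.81 ± 0.26 SE, adjusted p = 0.0558). SNHG28 had 11 and 10 counts in control cells and 29 and 25 in knockout cells (1.03 ± 0.48 SE, adjusted p = 0.151), and the annotation holds 2 overlapping genes of this name. SNHG26 and SNHG21 had log2 fold changes of 0.52 and 0.49 (adjusted p = 0.168 and 0.269), and 72.9% of the exonic bases of SNHG21 are shared with other genes on its strand. SNHG22, with 47 and 24 counts in control cells and 20 and 16 in knockout cells, had the lowest log2 fold change of the hosts, -1.28 ± 0.46 (SE, adjusted p = 0.0786). SNHG3, SNHG10 and SNHG15 had log2 fold changes of -0.11, 0.05 and 0.17.

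Per kilobase of annotated exon, the hosts spanned a wide range, and the highest were close to one another. In the controls GAS5 stood at 115, SNHG6 at 108, SNHG8 at 107, SNHG19 at 103 and SNHG5 at 102 normalized CPM per kilobase. The lowest was SNHG22 at 0.645. In the knockouts these 5 high hosts stood at 103, 77.2, 126, 72.9 and 96.1. SNHG14 stood at only 2.10 in the controls, over an annotated exonic length of 43324 bases.

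Starts of the member hosts were read from RefSeq (GRCh38.p14) for 19 hosts, since an oligopyrimidine tract at the very first base is the mark of the class described above. A run of at least 4 C or T from the first base was present in 6 of the 19 (31.6%) and in 1985 of 27305 genes with a start in that table (7.27%). The longest runs among the hosts are shown in capitals in the first 30 bases of the gene, 5′ to 3′.

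SNHG4: CCCTTTCCCCTCCggcctctgccggtgctg

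SNHG12: CCTTTCTCCCCgccgcattcccggtgtcga

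SNHG19: CTTTTCggggtcgagtccgagggggaagag

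SNHG5: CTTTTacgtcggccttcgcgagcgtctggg

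SNHG4 starts at chr5:139274101-139274130 on the plus strand, SNHG12 at chr1:28581844-28581873, SNHG19 at chr16:2155329-2155358 and SNHG5 at chr6:85678704-85678733, these on the minus strand. SNHG26 and SNHG7 each had a run of 4. The 6 hosts did not share a direction, with log2 fold changes of 0.81 for SNHG4, 0.52 for SNHG26, -0.08 for SNHG5, -0.12 for SNHG7, -0.49 for SNHG19 and -0.60 for SNHG12. A missing run says only that these letters are not at the annotated start.

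Among the snoRNAs, SNORD104 had the highest level and the smallest adjusted p, though SNORA7B, SNORD12C and SNORA22 had larger fitted changes. It was the member snoRNA with the most counts, 412 and 314 counts in control cells and 129 and 163 in knockout cells, or 18.5 and 16.2 against 4.91 and 6.30 normalized CPM. Both knockouts lay far below both controls. The mean fell from 17.3 ± 1.58 to 5.61 ± 0.982 normalized CPM (SD, n = 2 each; log2 fold change -1.63 ± 0.21 SE, edgeR adjusted p = 0.00377). Over 10 alternative settings its log2 fold change stayed between -1.75 and -1.45 and its adjusted p at or under 0.0360. Per kilobase, it stood at 248 normalized CPM in control cells and 80.1 in knockout cells, while its host SNHG25 stood at 18.6 and 13.7. These values divide by annotated lengths of 70 and 278 bases. Sequenced fragments can reach past so short a gene, so the level of SNORD104 per kilobase may be overstated. By the annotation, 48.6% of the exonic bases of SNHG25 are shared with other genes on its strand, SNORA50C among them, so the level of SNHG25 per kilobase may be understated. The 2 levels per kilobase thus do not show how much more abundant the snoRNA was.

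As a class, 28 of the 46 snoRNA members had enough counts to be tested, 16 C/D and 12 H/ACA. Of these 28, 0 were higher and 4 were lower (14.3%), beside the 22.8% of all genes called, and at an unadjusted p under 0.05 the numbers were 0 and 6 (21.4%), against 17.9% higher and 20.9% lower over all genes. The 16 tested C/D snoRNAs had 0 higher and 3 lower and a median log2 fold change of -0.13 (range -2.50 to 1.13). The 12 tested H/ACA snoRNAs had 0 higher and 1 lower and a median of -0.53 (range -2.64 to 0.70). These medians turned with single libraries: when control replicate 1 was left out, that of the H/ACA snoRNAs was 0.046 and that of the C/D snoRNAs 0.11. Leaving out knockout replicate 1 gave 0.034 and -0.025, and leaving out knockout replicate 3 gave -0.95 and -0.27. The other 18 snoRNA members had too few counts to enter the test, so these counts and medians do not describe every member. SNORA7B, SNORA22 and SNORD12C entered the test through their control counts alone, and their changes are given as a description.

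SNORD88A had 68 and 54 counts in control cells and 34 and 27 in knockout cells (3.05 and 2.79 against 1.29 and 1.04 normalized CPM). The groups did not overlap, and the level fell by 1.32 on the log2 scale (SE 0.35, adjusted p = 0.0295). The call was lost without control replicate 1 (adjusted p = 0.293), without control replicate 3 (0.192) and with DESeq2 (0.0647).

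SNORD63B had 31 and 37 counts in control cells and 17 and 13 in knockout cells, or 1.39 and 1.91 against 0.647 and 0.503 normalized CPM. It fell by 1.51 on the log2 scale (SE 0.46, adjusted p = 0.0464), with the knockouts below the controls. HSPA9, in whose exon it lies, was at 557 and 562 normalized CPM in control cells and 632 and 638 in knockout cells (log2 fold change 0.18 ± 0.16 SE, adjusted p = 0.430). Reads counted for SNORD63B may come from that exon of HSPA9, so its level is uncertain. The adjusted p of SNORD63B was 0.228 without control replicate 1, 0.372 without control replicate 3, 0.0598 with library totals and 0.123 with DESeq2.

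SNORA7B, the H/ACA snoRNA that passed, rested on few reads, with 10 and 11 counts in control cells and 3 and 1 in knockout cells. It met the count filter through the controls alone, while SNORD20 and SNORA66, with 47 and 42 summed counts against its 25, were not tested. Its call is therefore a description and not support for a fall. The fitted log2 fold change was -2.64 ± 0.79 (SE, adjusted p = 0.0432). It missed the threshold without control replicate 1 (adjusted p = 0.323), without knockout replicate 3 (0.138) and with library totals (0.0511), and was not tested without control replicate 3. Its near-identical copy SNORA7A adds a further uncertainty to where these reads belong.

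**Figure D2:**
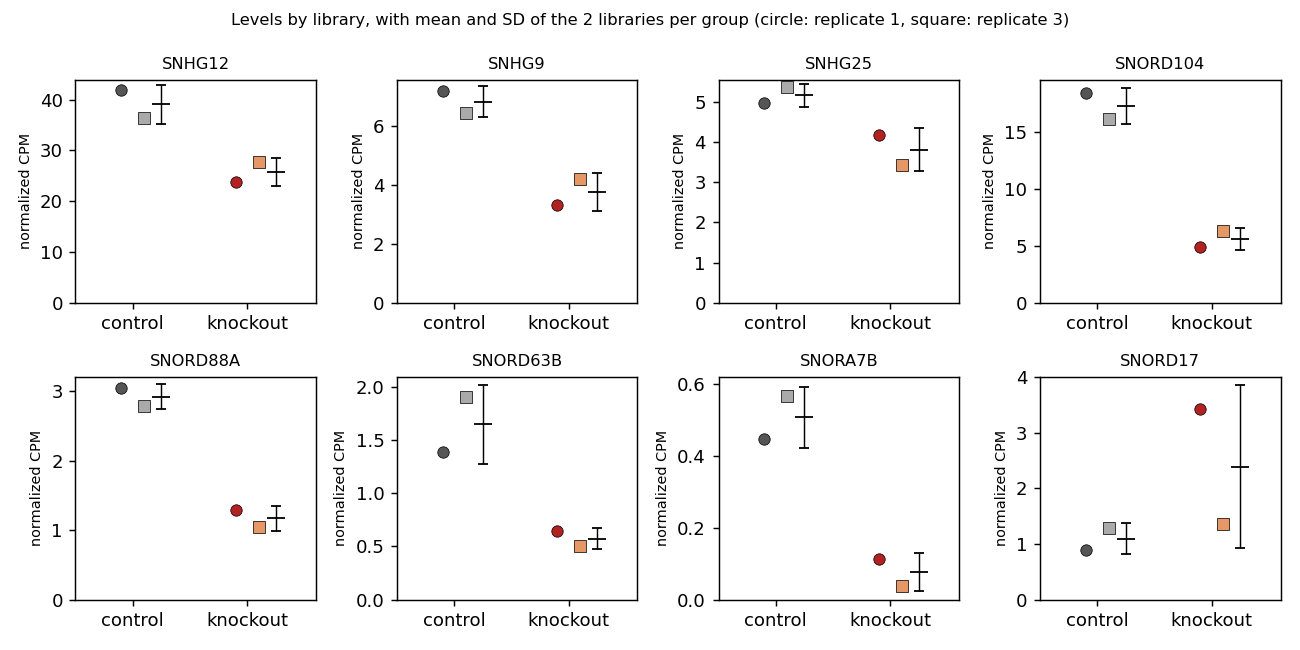
Normalized CPM (y axis, from 0) by library for 3 hosts and 5 snoRNAs, with circles for replicate 1, squares for replicate 3, and bars giving mean and SD of the 2 libraries in each group. SNORD104 dropped from 18.5 and 16.2 to 4.91 and 6.30 while its host SNHG25 went from 4.97 and 5.37 to 4.19 and 3.44, and SNORD17 was highest in knockout replicate 1.

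The remaining snoRNAs did not pass, and their low counts left wide intervals. The median SE of the log2 fold change was 0.60 over the 28 tested snoRNAs and 0.21 over the hosts, and for 0 of the 28 snoRNAs did the 95% interval lie within a 2-fold change. SNORD17, a long C/D snoRNA, had 20 and 25 counts in control cells and 90 and 35 in knockout cells (log2 fold change 1.13 ± 0.51 SE, adjusted p = 0.135), so that both knockouts were above the controls but differed from each other. SNORA11F, for which no containing gene was found on its strand, had 38 and 32 counts in control cells and 86 and 56 in knockout cells (0.70 ± 0.36 SE, adjusted p = 0.187). SNORD12C, from an intron of ZFAS1, had 12 and 16 counts in control cells and 0 and 6 in knockout cells (adjusted p = 0.0869). A count of 0 in knockout replicate 1 allows a level of up to 0.114 normalized CPM, counting error only.

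A recurring pattern was a gap between the knockout libraries. SNORA33 had 52 and 22 counts in control cells and 13 and 48 in knockout cells, and SNORD99 had 26 and 25 against 4 and 31. SNORD3A, the U3 snoRNA, which takes part in the cleavage of ribosomal RNA precursors, had 37 and 16 against 3 and 27. In each of these knockout replicate 1 was the lowest library and knockout replicate 3 lay within the range of the controls. SNORD14A had 14 and 21 counts against 7 and 33, SNORD83A 11 and 9 against 9 and 38, SNORD46 14 and 7 against 16 and 39, and SNORD100 15 and 18 against 25 and 52. SNORA73B had 38 and 42 against 25 and 46. None of these passed the test. The SNORD3A row spans 699 bases and that of SNORA59B 701, against at most 272 in the other snoRNA members. Reads in these 2 rows need not come from snoRNA sequence.

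Among the 18 untested members, counts were at most 27 in any library. SNORD20, in an intron of nucleolin (NCL), had 9 and 2 counts in control cells and 9 and 27 in knockout cells, and SNORA66, in RPL5, had 6 and 8 against 5 and 23. SNORD60, in the host SNHG19, had 21 and 6 against 4 and 1, and SNORD7 had 10 and 8 against 2 and 3. SNORD37, in the elongation factor gene EEF2, had 3 and 4 against 0 and 16. At this depth no difference was tested for them.

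**Figure D3:**
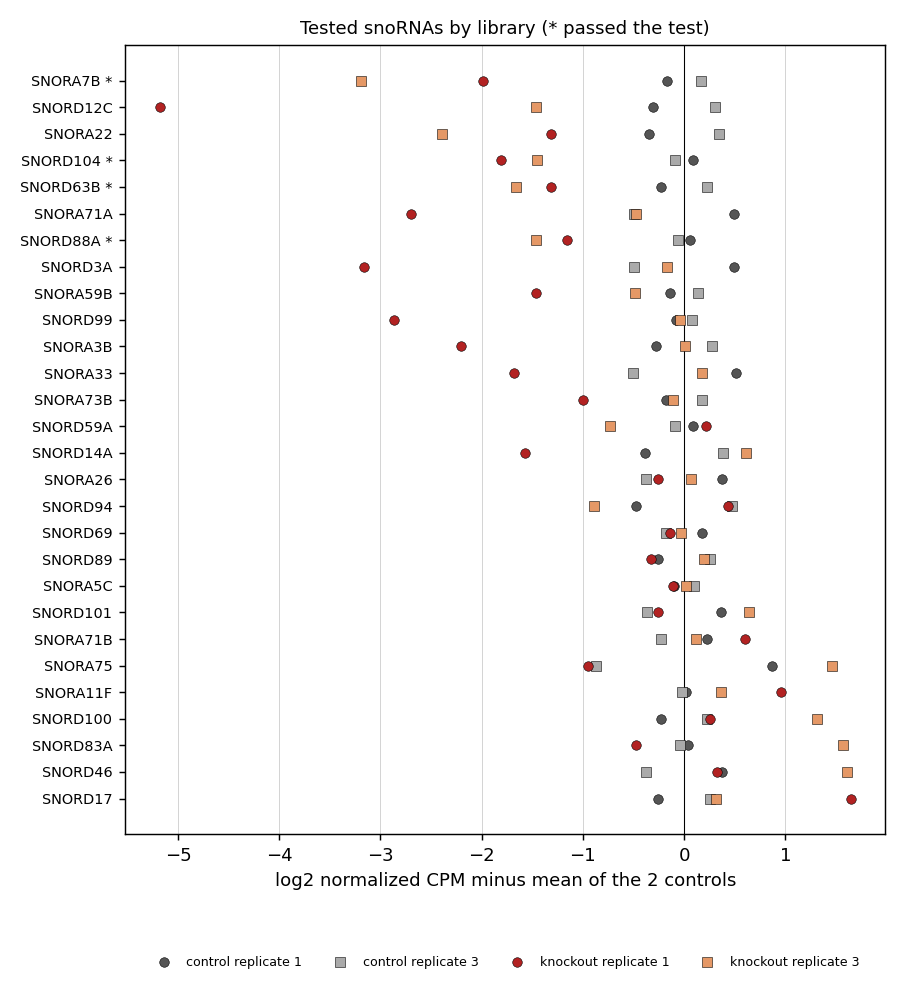
The 28 tested snoRNAs by library, as log2 normalized CPM (with a prior of 0.5 counts) minus the mean of the 2 controls (x axis), ordered by log2 fold change; circles are replicate 1 and squares replicate 3, with controls in grey and knockouts in colour. The 4 snoRNAs with asterisks passed the test, and knockout replicate 1 lay left of knockout replicate 3 in 19 of the 28.

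The gap between the knockout libraries ran through both classes. Knockout replicate 3 exceeded knockout replicate 1 in 16 of 23 hosts (69.6%) and in 19 of 28 tested snoRNAs (67.9%), against 50.1% of all genes tested. Relative to the mean of the controls, the median host stood at -0.36 (log2) in knockout replicate 1 and at -0.01 in knockout replicate 3. The C/D snoRNAs stood at -0.40 and -0.03, the H/ACA snoRNAs at -1.16 and 0.01, and all genes at -0.05 and 0.01. Groups did not overlap in 4 hosts with higher and 10 with lower knockouts (60.9%) and in 3 and 7 snoRNAs (35.7%), while 65.9% of all genes tested did not overlap.

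Leaving out single libraries also shifted the counts. Over all genes, the 2 knockouts differed more from each other (chi-square per degree of freedom 49.2) than the 2 controls did (6.22). A fit without 1 library takes its spread from the group that keeps 2. The part of this in the counts below was not tested. Without knockout replicate 1, 4 hosts were higher and 6 lower, and their median was 0.0013. Without knockout replicate 3, 1 was higher and 11 were lower, and the median was -0.29. Without control replicate 1 and without control replicate 3, 0 hosts passed in either direction. The fit over all genes moved in the same settings, to 4242 genes higher and 4471 lower without knockout replicate 1 and 4795 higher and 4403 lower without knockout replicate 3, but 45 higher and 267 lower without control replicate 1 and 151 higher and 448 lower without control replicate 3. Among the C/D snoRNAs, 4 were higher and 4 lower without knockout replicate 1, and 1 and 6 without knockout replicate 3.

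Sums over members showed how much a class rests on its leading gene. The 23 hosts together held 38452 and 29597 counts in control cells and 32441 and 43568 in knockout cells, or 1722 and 1528 against 1235 and 1684 normalized CPM, with GAS5 the largest. The 23 C/D snoRNAs held 786 and 624 counts against 467 and 586, or 35.2 and 32.2 against 17.8 and 22.7 normalized CPM, with SNORD104 the largest. In the C/D sum both knockouts lay below both controls, but this rested on SNORD104: the other 22 C/D snoRNAs, summed after this was seen, stood at 16.7 and 16.0 normalized CPM against 12.9 and 16.4, and their groups overlapped, as did those of the host sum. The 23 H/ACA snoRNAs stood at 14.8 and 13.8 normalized CPM against 10.5 and 13.7, so that knockout replicate 3 nearly reached the lower control.

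Short and intronic genes outside the members also had mostly negative log2 fold changes. Of 158 other tested genes with under 300 exonic bases, 118 were negative, with a median of -0.86. Of these 158, 0 passed as higher and 53 as lower (33.5%), against 9.87% and 12.9% of all genes tested. Of 177 tested sense intronic genes, 149 were negative, with a median of -0.98, and 0 passed as higher and 56 as lower (31.6%). The part of such a broad shift in the values of SNORD104 and the other intronic snoRNAs was not tested.

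The comparison of a snoRNA with the gene that contains it was made for 24 member snoRNAs lying in an intron with no exon overlap. Of the 46 snoRNA members, 8 lay inside a member host, 31 inside a protein-coding gene and 5 inside another non-coding gene or a pseudogene, and for 2 no containing gene was found on the strand. In edgeR's test of a part against its whole (diffSpliceDGE), 1 of the 24 was higher than its host and 2 were lower, against 36.1% called of 518 nested genes of any kind, of which 13 were higher and 174 lower. The log2 fold change of the snoRNA minus that of its host was positive in 12 and negative in 12 members, with a median of -0.04. Over all 518 nested genes it was positive in 126 and negative in 392, with a median of -0.82.

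SNORD17 was the member that rose against its host. SNX5 had 3040 and 2493 counts in control cells and 2555 and 2860 in knockout cells, a log2 fold change of -0.35 ± 0.14 (SE). The log2 fold change of SNORD17 exceeded that of SNX5 by 1.48 (adjusted p = 0.0152). Knockout replicate 1, with 90 of the reads of SNORD17, stood above the other libraries, and the log2 fold change of SNORD17 was 0.33 without that library and 1.72 without knockout replicate 3.

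SNORA7B and SNORD88A were lower against their hosts. RPL32P3 had 207 and 191 counts in control cells and 282 and 171 in knockout cells, and SNORA7B differed from it by -2.50 (adjusted p = 0.0201). SNORA7B entered this test too through its control counts alone. C19orf48 had 16946 and 13080 counts in control cells and 15114 and 16999 in knockout cells, and SNORD88A differed from it by -1.10 (adjusted p = 0.0342). In both pairs the host itself did not pass the test, with adjusted p-values of 0.729 and 0.382. Without control replicate 1 or without control replicate 3, 0 of the tested member pairs passed.

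SNORD104 and SNHG25 gave different answers by method. SNHG25 had 111 and 104 counts in control cells and 110 and 89 in knockout cells (4.97, 5.37, 4.19 and 3.44 normalized CPM; log2 fold change -0.44 ± 0.26 SE, adjusted p = 0.250). The log2 ratio of SNORD104 to SNHG25 counts was 1.89 and 1.59 in control cells and 0.23 and 0.87 in knockout cells, with no overlap, and the log2 fold changes differed by -1.19. The test against the combined counts gave an adjusted p of 0.253, but SNORD104 supplies 1018 of the reads of this pair and SNHG25 only 414, so the whole is mostly the snoRNA itself. With the host counts as an offset, a test added after seeing the data, the adjusted p was 0.00249. An offset treats the host counts as known exactly, so this p leaves out the counting error of SNHG25. The offset test called 39.2% of the 518 nested genes and, of the 24 members, 1 higher and 3 lower. SNORD88A was at an adjusted p of 0.0660 and SNORD12C against ZFAS1 at 0.0165 (0.0545 in the first test). SNORD12C and SNORA7B, which are among the 3 lower, entered this test through their control counts alone. Their values in it are therefore a description and not support for a fall.

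Other pairs inside member hosts did not pass the test. SNORD99 and SNHG12 had log2 fold changes of -0.86 and -0.60 (difference -0.26, adjusted p = 0.793). In SNHG17, SNORA71B differed from the host by 0.93 (adjusted p = 0.247) and SNORA71A by -0.78 (0.428). SNORA71B had 13 and 8 counts against 20 and 14, and SNORA71A 19 and 8 against 2 and 11, so the groups overlapped for both. SNORA73B, inside both RCC1 and SNHG3, was set against RCC1, which has more counts, and differed by -0.31 (adjusted p = 0.641).

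RPS12, a ribosomal protein gene, carries 3 tested members, none of which passed the test against it. Its own level was 1630 and 1374 normalized CPM in control cells and 841 and 1364 in knockout cells (log2 fold change -0.45 ± 0.25 SE, adjusted p = 0.224). SNORA33 differed from it by -0.12 (adjusted p = 0.900), SNORD101 by 0.67 (0.493) and SNORD100 by 1.34 (0.0624). SNORA59B, whose row spans 701 bases, differed from SLC47A1 by -0.82 (adjusted p = 0.260). Of the 23 protein-coding genes with a member snoRNA in an intron, 1 was higher (4.35%) and 0 were lower, against 9.87% and 12.9% of all genes tested. Their median log2 fold change was -0.14, close to the median of the SNHG hosts and GAS5, while that of all genes was -0.0045.

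**Figure D4:**
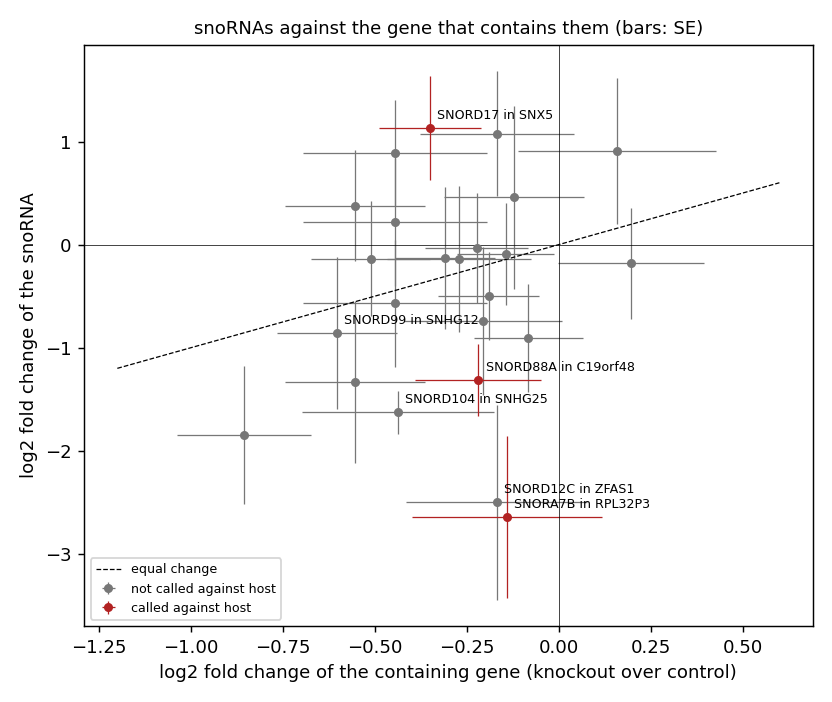
Log2 fold change of 24 snoRNAs (y axis) against that of the gene containing them (x axis), with bars of 1 SE and a dashed line of equal change; red points passed the test against the host. SNORD17 lies above the line, SNORA7B and SNORD88A below it, and SNORD104 and SNORD12C also lie below without passing that test.

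Whether a snoRNA had counts at all differed with the exons around it. Of 117 annotated snoRNAs in the table that lay wholly in exons of a containing gene on the same strand, 112 (95.7%) were at 0 in all 4 libraries, and SNORD63B was the one with at least 20 counts. Of 244 in introns only, 127 (52.0%) were at 0 and 39 reached 20 counts. Many of the intron rows at 0 lie in the single host SNHG14, where 64 of the 72 rows not wholly in exons were at 0. The share without that host was not computed. Of 25 partly in exons, 9 (36.0%) were at 0. In SNHG1, SNORD22, SNORD25, SNORD26, SNORD27 and SNORD28 all lie wholly in exons of some transcript and all were at 0, while SNORD30, partly in an exon, had 15 counts. In SNHG12, SNORA44 and SNORA61 lie in exons and were at 0, and SNORD99, in an intron, had 86 counts. Reads over a shared exon belong to more than 1 gene, and how the counting treated them was not stated in any source read here, so a 0 in such a row does not show that the snoRNA is missing.

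**Figure D5:**
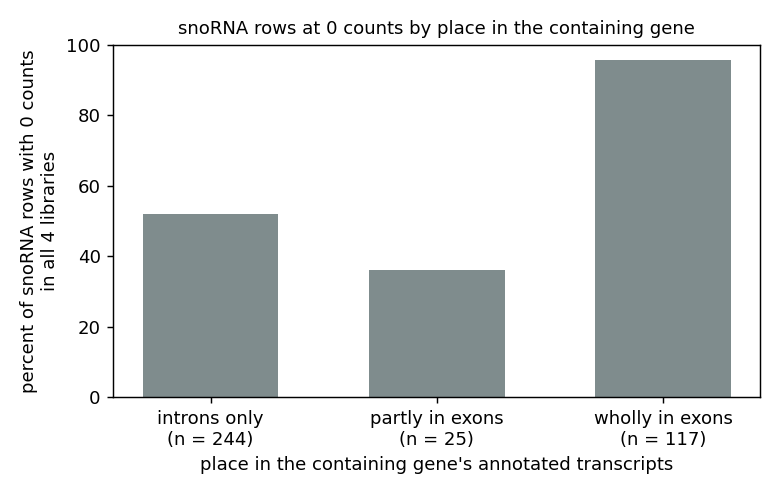
Percentage of annotated snoRNA rows with 0 counts in all 4 libraries (y axis, from 0) by their place in the containing gene's annotated transcripts (x axis). The bars stand at 52.0% for introns only, 36.0% for partly in exons and 95.7% for wholly in exons. Rows inside SNHG14, most of them at 0, are included.

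Inside SNHG14, with its imprinted clusters, the split by exon was not seen. Of 83 snoRNA rows inside it, 8 of the 11 lying wholly in exons and 64 of the other 72 were at 0 in all libraries, and the rows wholly in exons that had counts were SNORD116-4, SNORD116-26 and SNORD116-27. Together the 83 rows held 44 counts against 7294 for the spliced host. SNHG17 was the host with the most members inside it, with 3 of its 4 snoRNAs reaching the minimum.

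Proteins of the snoRNA particles were followed from lists. Of 8 core proteins, 0 were higher and 2 lower (25% called, against 22.8% of all genes), with a median log2 fold change of -0.36. NOP56 and NOP58, the paired scaffold proteins of the C/D particle, both fell. NOP56 had 591 and 567 normalized CPM in control cells and 310 and 359 in knockout cells (log2 fold change -0.79 ± 0.16 SE, adjusted p = 0.0124). NOP58 had 213 and 217 against 156 and 137 (-0.56 ± 0.14 SE, adjusted p = 0.0249). FBL, the methyltransferase of the C/D particle, had a log2 fold change of -0.22 and DKC1, the pseudouridine synthase of the H/ACA particle, one of 0.31, and neither passed, nor did the H/ACA protein GAR1 (-0.37, adjusted p = 0.0816). Calls for NOP56 and NOP58 were lost when 1 control was left out, with adjusted p-values of up to 0.230 and 0.307, and that for NOP58 also with library totals (0.0630).

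Of 12 assembly factors, 1 was higher and 1 lower (16.7% called, against 22.8% of all genes), with a median of -0.08. ZNHIT3, which takes part in early C/D particle assembly, fell by 0.61 on the log2 scale (adjusted p = 0.0196), and NAF1, an assembly factor of H/ACA particles, rose by 0.72 (adjusted p = 0.0279). NOLC1, a nucleolar and Cajal body chaperone of snoRNA particles, was at 0.51 (adjusted p = 0.0574).

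Of 19 factors of nonsense-mediated decay, 2 were higher and 3 lower (26.3% called, against 22.8% of all genes), with a median of -0.04. UPF3B, which links the exon junction complex to decay, had 67.8 and 69.9 normalized CPM in control cells and 28.6 and 30.3 in knockout cells (log2 fold change -1.22 ± 0.14 SE, adjusted p = 0.00291), with no overlap, and it kept its call over 10 alternative settings. Its paralogue UPF3A fell by 0.72 (adjusted p = 0.0141) and UPF2 by 0.61 (0.0179). SMG8 and CASC3 rose by 0.77 and 0.67, while UPF1, the helicase of the pathway, was at -0.04 (adjusted p = 0.907).

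Of 22 factors of intron release and RNA trimming, 2 were higher (9.09%) and 7 lower (31.8%), against 9.87% and 12.9% of all genes, with a median of -0.08. All 7 that fell were exosome subunits, the complex that trims snoRNA 3′ ends, namely EXOSC10, EXOSC9, EXOSC4, EXOSC3, EXOSC8, EXOSC6 and EXOSC5. EXOSC10, its nuclear nuclease, had 195 and 188 normalized CPM in control cells and 104 and 96.8 in knockout cells (log2 fold change -0.93 ± 0.13 SE, adjusted p = 0.00493). EXOSC1, EXOSC2, EXOSC7 and DIS3 did not pass. XRN2, a 5′ to 3′ nuclease, rose by 0.93 (adjusted p = 0.0101) and DHX15, a helicase that releases introns from the spliceosome, by 0.83 (0.0121). DBR1, the debranching enzyme that opens the excised intron lariat, was at 0.25 (adjusted p = 0.250). Over the 4 lists, 5 genes were higher and 13 lower, beside 9.87% and 12.9% of all genes tested. These counts shifted when single libraries were left out, as did those over all genes.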

How the data were processed

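RNA-seq libraries, 2 control and 2 knockout, were deposited by the authors as 1 table of raw gene counts. Per the submitters' processing notes the tools were Trimmomatic 0.36, STAR 2.5.2b and featureCounts (Subread 1.5.2) on GRCh38, and per the labels' protocols the RNA was poly(A)-selected and read as paired ends. Not given in the sources used here were the strand setting, the treatment of multimapping or overlapping reads and the annotation release of the counting. Rows with no gene name (0.0191 to 0.0290% of counts) were left out.

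Counts were tested with edgeR 4.0.16 in R 4.3.3: filterByExpr, TMM scaling, glmQLFit (robust) and glmQLFTest over 18043 genes, Benjamini-Hochberg adjusted, threshold 0.05. A snoRNA was compared with its host by diffSpliceDGE over 518 nested genes, and in an added alternative with host counts as an offset. Positions came from GENCODE 29 (GRCh38) by gene name, which may not be the release used for counting, and the scripts were tested on simulated data. Alternatives were RLE scaling, library totals, 2 other count filters, DESeq2 1.42.0, a replicate block and leaving out each library. The replicate differences of the groups were uncorrelated over the tested genes (r = -0.0069), and the main fit did not pair the samples. This does not show whether libraries of the same number were prepared together.

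The members, lists and tests were chosen with earlier results of these data known. Genes named by rule were the 8 most abundant hosts and snoRNAs, the called members with the largest changes, pairs inside member hosts and 6 others, and the 3 genes of smallest p per list; further members were named after their values were seen. Of the list genes, 2 were matched by an older symbol.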

Additional observations from a re-analysis of the deposited data

How the results depend on the processing

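With 2 libraries per group the spread is poorly known, and 18 of 46 snoRNA members were too weak to test. SNORD104 kept its direction and its call in each of the 10 alternatives run. Library totals alone gave 1 host higher and 0 lower, 0 H/ACA snoRNAs lower and 8 list genes lower, and turned SNHG5 to 0.021, SNHG16 to 0.014 and SLC47A1 to 0.026. Without a count filter, 1 host was higher and 4 lower, 1 C/D snoRNA higher and 5 lower, 0 H/ACA snoRNAs lower, 8 list genes higher and 0 snoRNAs lower against their hosts. With at least 50 counts in each library of 1 group, the medians were -1.51 for C/D and 0.66 for H/ACA snoRNAs, which then held few members, with 0 H/ACA snoRNAs lower and, against hosts, 0 snoRNAs higher and 1 lower. With the replicate block, 1 host was higher and 5 lower, and the block moved no other count of members by over 1.5 times. Over all genes, the block gave 2062 higher and 2781 lower of 18043 tested. The setting without a count filter gave 2512 genes higher and 2841 lower of 32400 tested. DESeq2 gave 1 host higher and 1 lower, 1 C/D snoRNA lower and 0 H/ACA snoRNAs lower, and had no test of snoRNA against host. RLE scaling gave the same host, C/D and H/ACA counts. The cause of these differences was not tested.

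Leaving out 1 library at a time gave 45 to 4795 genes higher and 267 to 4471 lower over all genes. The hosts ranged over 0 to 4 higher and 0 to 11 lower, the C/D snoRNAs over 0 to 4 and 1 to 6, the H/ACA snoRNAs over 0 to 1 and 0 to 3, the list genes over 0 to 23 and 1 to 23, and snoRNAs against hosts over 0 to 3 and 0 to 3. With 1 library left in a group, its spread is assumed to be that of the other group. The log2 fold change turned for GAS5 (-0.39 to 0.11), SNHG5 (-0.22 to 0.063), SNHG16 (-0.29 to 0.16), SNHG1 (-0.46 to 0.20), SNHG7 (-0.17 to 0.0013), SNHG8 (-0.091 to 0.55), SNORA33 (-1.74 to 0.092) and SLC47A1 (-0.089 to 0.0024). SNORD17, SNORD63B and SNORA7B gave no value with the stricter filter, and SNORA7B none with DESeq2 or without control replicate 3.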
